A study of Mus musculus with 17 samples.

Results

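The Hox genes of clusters a, b, c and d were followed in 16 mouse libraries. Members were the rows of the deposited expression table whose symbol is Hox, a cluster letter from a to d and a number. This gave 39 of 54658 genes: 11 in Hoxa, 10 in Hoxb, 9 in Hoxc and 9 in Hoxd. Hox genes encode homeodomain transcription factors that set the identity of segments along the body axis in the embryo. The order of the genes along each cluster follows the order in which they are switched on along the body from head to tail, low numbers anterior and high numbers posterior. Genes with the same number in different clusters are paralogs, descended from 1 ancestral gene. Fibroblasts and fat cell precursors of the adult keep part of this pattern, so that depots of fat differ in which Hox genes they express. The 39 genes are grouped below as anterior (paralogs 1 to 3, 8 genes), middle (4 to 8, 15 genes) and posterior (9 to 13, 16 genes).

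The series, titled for leptin, complement factor D, osteoarthritis and knee pain, names male hosts of a type written LD, and does not say from which mice the endogenous fat was taken. Hosts were given mouse embryonic fibroblasts (MEF) under the skin over the sternum at 3 to 5 weeks of age, and these grew into a tissue resembling fat. Implants from leptin knockout (KO) pups carry the codes MKM (described as male, with surgery) and MKF (female, with surgery). Implants from wildtype (WT) pups carry the codes MWM (male, with surgery) and MWF (female, with surgery). Endogenous visceral fat carries the codes EVFY (visceral by its genotype label, code not spelled out), EVFN (nonsurgical) and EVM (with surgery), and endogenous subcutaneous fat the code ESM (male, with surgery). Surgery destabilized the medial meniscus of the left knee at 16 weeks, and mice ended at 28 weeks. Each of these 8 codes has 2 libraries. A sample with the code ESF was not analysed here. Implanted fibroblasts are mixed with host tissue that grows into or around them, and nothing in the labels says which site of the embryo they came from, whether pups were pooled, or whether libraries of a code came from separate animals.

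Before any comparison, a pair of libraries stood apart from their labels. The library labelled MKM1, a KO implant by its label, had 14068 CPM of Cfd, the gene of complement factor D (CPM, reads of a gene per 1000000 reads of the library). The other 3 KO implants had 91.4 to 104 CPM of Cfd, and endogenous fat had 5788 to 13269 CPM. The library labelled EVFN1, visceral fat by its label, had 81.8 CPM of Cfd. Both are given by themselves and stay out of every group mean and test below, which leaves 7 implants (3 KO, 4 WT), 5 visceral libraries and 2 subcutaneous libraries. With both libraries put back under their labels, no Hox gene passed the threshold in any comparison below.

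Library totals ranged from 16444965 to 25805502 reads, so that 1 read was worth 0.039 to 0.061 CPM. The labels call the tissue ganglia and the cells sensory ganglion, whereas 8 fat cell markers summed to 8935 to 27594 CPM over the 14 libraries of the groups and 11 sensory neuron markers to 8.19 to 58.0 CPM. Positions come from the GENCODE M21 gene models on mm10. Hoxa lies on chromosome 6 (52155590 to 52260880, minus strand), Hoxb on chromosome 11 (96194316 to 96368256, plus strand), Hoxc on chromosome 15 (102921103 to 103036852, plus strand) and Hoxd on chromosome 2 (74668310 to 74765142, plus strand). The strand setting of the counting is not given in the sources used here, and exons of several members lie over those of other genes. Another gene covers 62.8% of the exon bases of Hoxd3, 52.9% of Hoxb3, 52.3% of Hoxd4 and 35.0% of Hoxa11, the last through its antisense RNA Hoxa11os. The values of these 4 genes are therefore uncertain. Hoxc10 shares 8.7% of its exon bases with Hoxc5.

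The promoters of 22 members are in the RefSeq table used here (build GRCm38.p6, 250 bases before to 50 after the start, 24 promoters). A set of 4 is shown because the comparisons turn on these genes: Hoxd13 and Hoxa13, which were read in all implants and lie at the posterior end of their clusters, Hoxa10, which differed most between visceral codes among Hoxa genes, and Hoxa5, a middle gene that was lower in implants than in visceral fat. Capitals mark TTTAT on either strand, the core of sites that posterior Hox proteins prefer.
Hoxd13, chr2:74667975-74668274, plus strand: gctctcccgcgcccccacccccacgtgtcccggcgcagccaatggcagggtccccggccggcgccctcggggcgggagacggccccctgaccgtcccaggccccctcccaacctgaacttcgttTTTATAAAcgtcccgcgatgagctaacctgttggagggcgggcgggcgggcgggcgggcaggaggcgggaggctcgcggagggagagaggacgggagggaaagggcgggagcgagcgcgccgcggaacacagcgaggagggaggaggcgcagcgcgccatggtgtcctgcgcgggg
Hoxa13, chr6:52260831-52261130, minus strand: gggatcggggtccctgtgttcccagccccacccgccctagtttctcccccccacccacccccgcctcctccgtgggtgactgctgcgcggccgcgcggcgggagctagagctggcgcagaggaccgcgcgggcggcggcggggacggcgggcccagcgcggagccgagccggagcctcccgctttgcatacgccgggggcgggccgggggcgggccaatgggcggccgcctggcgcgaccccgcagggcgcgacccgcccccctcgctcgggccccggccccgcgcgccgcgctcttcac
Hoxa10, chr6:52240805-52241104, minus strand: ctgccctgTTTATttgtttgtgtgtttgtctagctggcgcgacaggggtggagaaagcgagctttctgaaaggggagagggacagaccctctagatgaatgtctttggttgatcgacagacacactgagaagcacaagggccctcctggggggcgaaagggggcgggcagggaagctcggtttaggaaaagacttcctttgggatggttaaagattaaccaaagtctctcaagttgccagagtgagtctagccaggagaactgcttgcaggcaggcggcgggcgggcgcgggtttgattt
Hoxa5, chr6:52204538-52204837, minus strand: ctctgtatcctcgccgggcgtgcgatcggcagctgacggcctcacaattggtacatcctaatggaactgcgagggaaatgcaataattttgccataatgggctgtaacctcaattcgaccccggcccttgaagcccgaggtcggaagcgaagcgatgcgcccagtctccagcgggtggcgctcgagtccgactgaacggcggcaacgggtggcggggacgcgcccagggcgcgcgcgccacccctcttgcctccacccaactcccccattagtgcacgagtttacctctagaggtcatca
Both matches in the Hoxd13 promoter lie in a single TTTATAAA, 1 on each strand, and overlap the TATAAA matches there. The Hoxa13 promoter has 81.0% G or C and 45 CG sites, and the Hoxd13 promoter 74.3% and 37. The Hoxa10 promoter shown has 54.3% and 12, and the Hoxa5 promoter 61.7% and 29. Over the 24 Hox promoters the median number of CG sites was 14.5, against 7 over 32851 promoters in all. TTTAT was in 37.5% of Hox promoters and in 40.0% of all promoters. AGGTCA, the unit that nuclear receptors such as those for retinoic acid recognise, was in 29.2% of Hox promoters and in 16.3% of all promoters. These matches describe the letters of the windows and show no binding.

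Implants held less Hox RNA than either kind of endogenous fat, and had reads of some posterior genes that were at 0 reads in fat. The summed level of the 39 genes was 180 ± 30.2 CPM in implants (SD, n = 7), 403 ± 49.7 CPM in visceral fat (n = 5), and 392 and 318 CPM in subcutaneous fat. No implant overlapped either kind of fat, the highest implant having 215 CPM and the lowest fat library 318 CPM. All 39 genes had reads in at least 1 of the 7 implants. In visceral fat 3 members, Hoxb13, Hoxd12 and Hoxd13, had 0 reads in all 5 libraries. In subcutaneous fat 9 members had 0 reads in both libraries: Hoxa11, Hoxa13, Hoxb1, Hoxb13, Hoxc12, Hoxc13, Hoxd11, Hoxd12 and Hoxd13. A count of 0 allows up to 3 reads, or 0.0304 CPM over the 5 visceral libraries and 0.0853 CPM over the pair of subcutaneous ones, for counting error only. All but Hoxb1 among these genes are posterior.

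Posterior genes made up 25.6 ± 2.67% of the summed Hox level in implants (SD, n = 7). They made up 34.5 ± 4.42% in EVFY and EVFN (n = 3), 13.2 and 4.9% in EVM, and 21.3 and 25.2% in subcutaneous fat. The highest paralog at 1 CPM or more in Hoxa was Hoxa13 in all 7 implants and in EVFY and EVFN, Hoxa10 in EVM1 and in both subcutaneous libraries, and Hoxa7 in EVM2. In Hoxd it was Hoxd13 in MKM2 and all 4 WT implants, Hoxd9 in both MKF implants, Hoxd11 in EVFY and EVFN, Hoxd10 in EVM1, and Hoxd9 in EVM2 and in both subcutaneous libraries. Per kilobase of exon, the scale on which genes can be set beside each other, Hoxc8 led in implants at 10.2 CPM per kb, followed by Hoxd8 at 7.69 and Hoxc6 at 6.17. In EVFY and EVFN the same genes led in another order, Hoxc6 at 18.6, Hoxd8 at 16.9 and Hoxc8 at 13.5 CPM per kb. Hoxc8 led at 34.5 CPM per kb in EVM and at 28.3 in subcutaneous fat, where Hoxc6 (17.9), Hoxc10 (11.03) and Hoxc9 (10.7) came next. These are means over libraries.

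**Figure D1:**
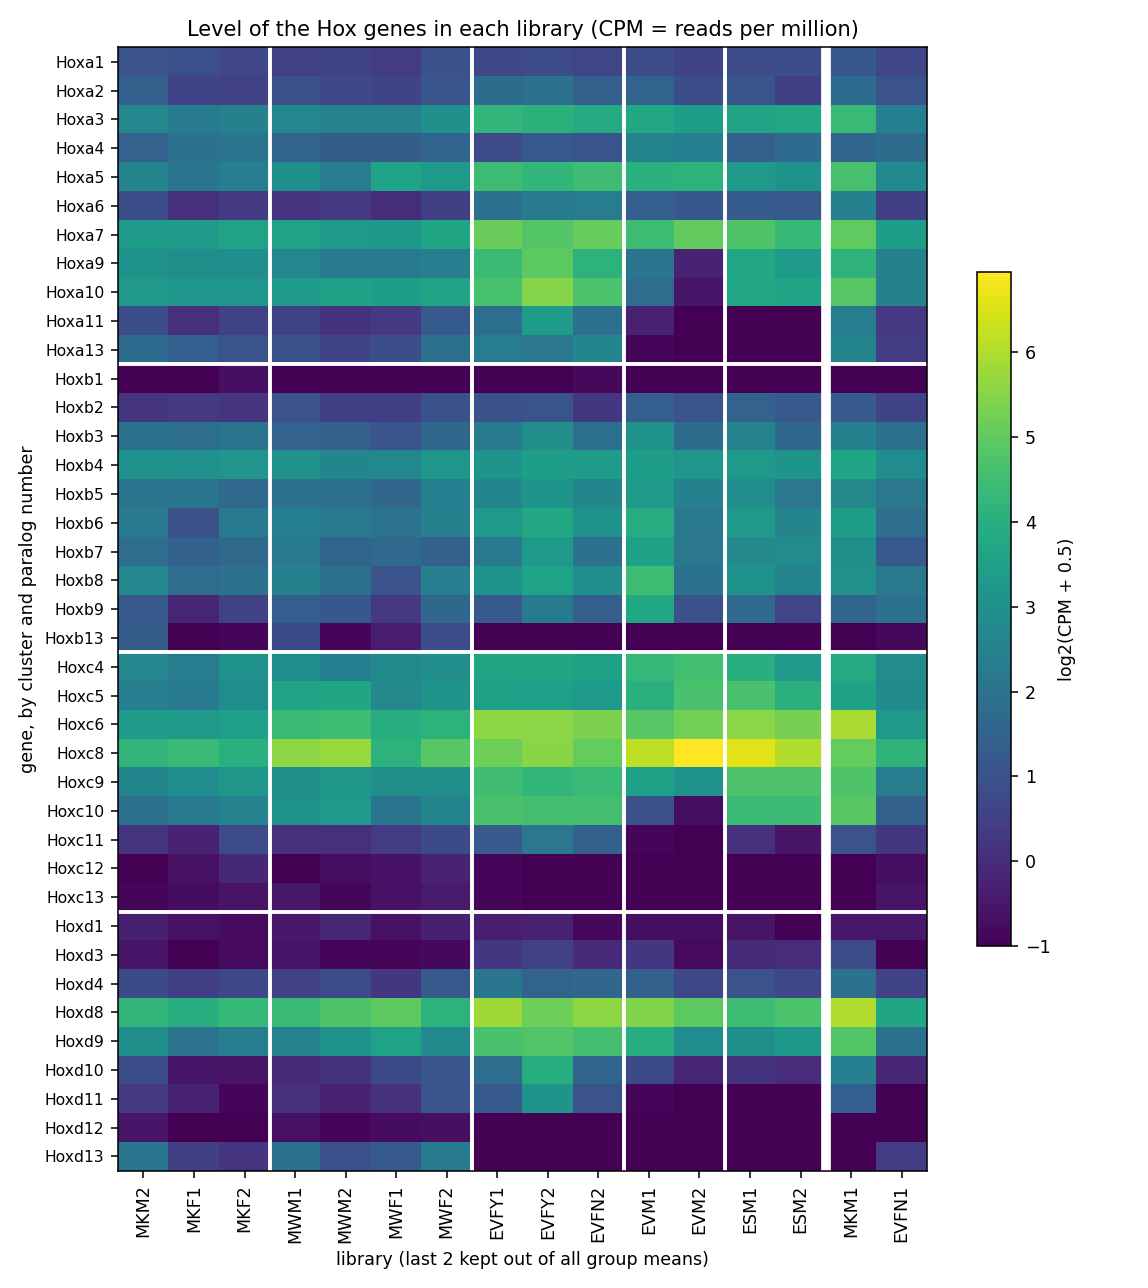
Level of each of the 39 Hox genes, as log2(CPM + 0.5), by library, with genes ordered by cluster and paralog number and libraries by group (KO implants, WT implants, EVFY and EVFN, EVM, ESM, then MKM1 and EVFN1). Hoxd13 has signal in the implants and in EVFN1, and Hoxa10, Hoxa11 and Hoxa13 are bright in EVFY, EVFN2 and MKM1 and dark in EVM2.

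**Figure D2:**
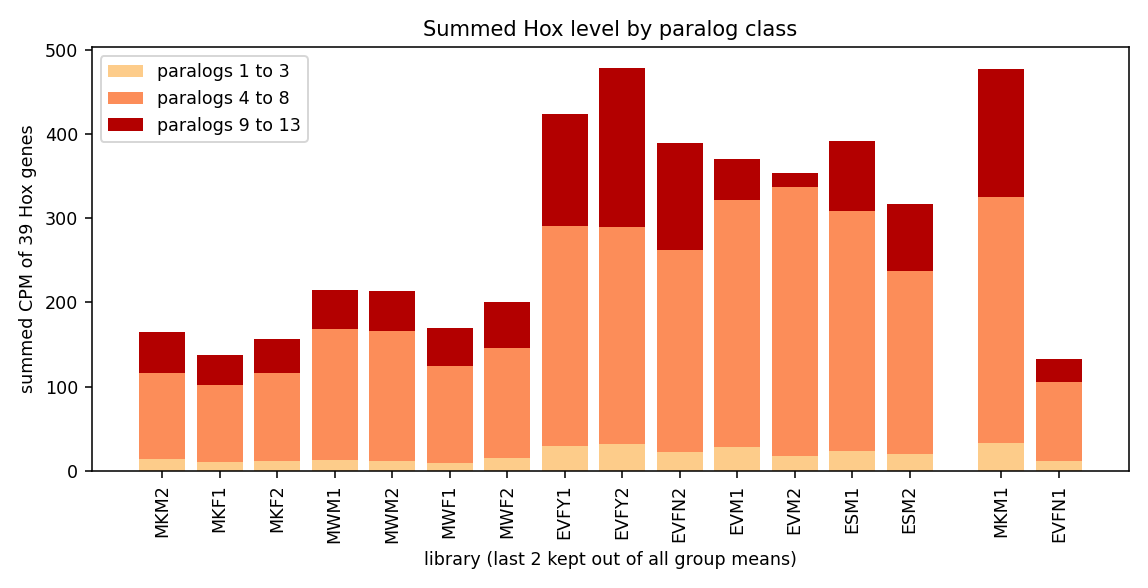
Summed CPM of the 39 Hox genes in each library, stacked by paralog class. The 7 implants sum to 137 to 215 CPM, endogenous fat to 318 to 479 CPM, MKM1 to 477 CPM and EVFN1 to 133 CPM.

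Comparing implants with visceral fat asks how far the Hox genes of the chest implants match those of fat inside the abdomen. Middle genes fell in implants, among them Hoxa5, Hoxa6, Hoxa7 and Hoxc6 by about 1.5 on the log2 scale, and Hoxd13 and Hoxb13, the most posterior genes of their clusters, were read in implants and at 0 reads in visceral fat. A gene is said to rise or fall where its limma test on log2(CPM + 0.5) has an adjusted p under 0.05 (Benjamini-Hochberg, over the 17871 genes that reached 1 CPM in 2 or more libraries). Of the 39 members 33 were tested, and 2 rose and 15 fell. The 2 that rose, Hoxb13 and Hoxd13, reached the filter on low values only through the implants, where they are high, so their test is no support and their values are a description. Over all genes tested 20.1% rose and 9.2% fell. The median log2 change was -0.80 over the 33 members and 0.11 over all genes tested. By class, 1 of 5 anterior genes fell, 11 of 15 middle genes fell, and 2 of 13 posterior genes rose while 3 fell. By cluster, 4 of 11 Hoxa genes fell, 1 of 9 Hoxb genes rose and 2 fell, 5 of 7 Hoxc genes fell, and 1 of 6 Hoxd genes rose and 4 fell. With the libraries labelled MKM1 and EVFN1 included, limma called 0 members higher and 0 lower, with 1 higher and 12 lower at an unadjusted p under 0.05. The share of all genes at an unadjusted p under 0.05 was not counted, here or in the comparisons below.

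Hoxd13, which with Hoxa13 patterns the hand and foot and the genital bud, had 0.64 to 4.38 CPM in implants (median 1.86, n = 7), and 0 reads in each visceral library. All 7 implants had reads of it, 310 in sum, which makes it at least 74.0-fold higher in implants than the 3 reads that a count of 0 allows over visceral fat. Hoxb13, known from the prostate and the tail end of the spine, had 0 to 2.04 CPM in implants (median 0.27) and 0 reads in visceral fat, at least 22.7-fold higher. The implants were uneven, with 2.04, 1.34 and 1.22 CPM in MKM2, MWF2 and MWM1, and 0.27 CPM or less in the other 4. Hoxc13, a gene of hair follicles and nails, was too low to test, with 0.05 to 0.24 CPM in the implants, 1 read in EVFY1 and 0 in the other 4 visceral libraries.

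Among middle genes, Hoxc6 had 9.42 to 21.6 CPM in implants (median 14.9), against 47.4, 46.7, 40.6, 28.9 and 37.6 CPM in EVFY1, EVFY2, EVFN2, EVM1 and EVM2. The sides did not overlap, and Hoxc6 fell by 1.52 on the log2 scale (SE 0.10, adjusted p = 9.5e-05 by limma). Hoxa5, which in the mouse sets the border of neck and chest and takes part in lung development, had 3.87 to 11.7 CPM in implants (median 5.50), against 21.7, 18.6, 21.9, 16.4 and 17.0 CPM in the same visceral libraries. It fell by 1.57 (SE 0.15, adjusted p = 0.0003), again without overlap. Hoxa7 had 8.87 to 12.4 CPM in implants and 21.9 to 34.7 CPM in visceral fat, and fell by 1.52 (SE 0.16). Hoxa6 had 0.53 to 1.37 CPM in implants and 1.78 to 4.69 CPM in visceral fat, and fell by 1.5 (SE 0.16). Hoxa3, an anterior gene of the throat region and thymus, had 4.40 to 7.48 CPM in implants and 10.5 to 18.3 CPM in visceral fat, and fell by 1.28 (SE 0.13). For these 5 genes, and for Hoxb5 and Hoxc4, every implant was below every visceral library. The share of all genes without such overlap was not counted, so this describes the values only.

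Hoxc8, Hoxc9, Hoxd8 and Hoxd9 also fell, with calls that depended on the visceral code. Hoxc8, a gene of the chest segments that in fat cell precursors holds back brown fat genes, had 16.0 to 52.5 CPM in implants (median 20.6), against 36.2, 45.6 and 33.1 CPM in EVFY1, EVFY2 and EVFN2 and 72.8 and 122 CPM in EVM. It fell by 1.01 (SE 0.20, adjusted p = 0.0066), and its log2 change was -0.58 with WT implants alone (adjusted p = 0.089) and -0.56 against EVFY and EVFN alone (adjusted p = 0.11). Hoxc9 had 5.75 to 8.76 CPM in implants (median 7.28), against 22.3, 18.4 and 19.8 CPM in EVFY and EVFN and 11.2 and 7.91 CPM in EVM. It fell by 1.09 (SE 0.13, adjusted p = 0.0008), and against EVM alone its log2 change was -0.39 (adjusted p = 0.19). Hoxd8 had 15.7 to 30.7 CPM in implants (median 19.5), against 55.3, 35.6, 48.0, 42.6 and 30.0 CPM in visceral fat, and fell by 1.05 (SE 0.20, adjusted p = 0.0056). Against EVM alone its log2 change was -0.80 (adjusted p = 0.090). Hoxd9 had 3.53 to 11.5 CPM in implants and 6.82 to 26.8 CPM in visceral fat, and fell by 1.46 (SE 0.24, adjusted p = 0.0029), with -0.63 against EVM alone (adjusted p = 0.23). The EVM2 library, at 6.82 CPM, lay among the implants for Hoxd9.

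Hoxc10, a posterior gene that in mouse subcutaneous fat holds back browning, showed how far the choice of visceral code matters. It had 3.51 to 9.2 CPM in implants (median 5.24), against 24.7, 24.0 and 23.0 CPM in EVFY1, EVFY2 and EVFN2 and 1.45 and 0.12 CPM in EVM. Implants thus lay below all of EVFY and EVFN and above both EVM libraries. Its log2 change was -0.62 over all visceral codes (adjusted p = 0.12), -2.11 against EVFY and EVFN alone (adjusted p = 0.0025) and 2.35 against EVM alone (adjusted p = 0.0077). Without EVFN2, which drops the EVFN code, the value over the remaining visceral codes was 0.10 (adjusted p = 0.83). Of the 33 members tested, 4 rose and 9 fell against EVM alone, beside 1119 and 495 of all 17871 genes tested. Against EVFY and EVFN alone 1 rose and 18 fell, beside 3296 and 1559 of all genes tested. The other members that fell were Hoxb5, Hoxb6, Hoxc4, Hoxc5, Hoxd4 and Hoxd10, by 0.80 to 1.24. Hoxd10 also depended on the visceral code. Per kilobase of exon its mean was 0.45 CPM in implants, 0.44 CPM in EVM and 3.75 CPM in EVFY and EVFN.

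Markers of other cells moved with this comparison. All 8 mesothelial markers were tested and 7 fell, their sum being 2.40 to 105 CPM in implants and 264 to 525 CPM in visceral fat, which is lined by mesothelium. Only 5 of the 8 reached 1 CPM in any implant, and the others reached the filter only through visceral fat, so their calls are no support. The 6 lung epithelium markers all rose, with sums of 9.49 to 509 CPM in implants and 0.0548 to 0.223 CPM in visceral fat, where 3 of the 6 had 0 reads. The 6 liver markers all rose, with sums of 43.6 to 10690 CPM and 7.98 to 62.4 CPM. No lung marker and only 2 liver markers reached 1 CPM in any visceral library. The calls of the rest, which reached the filter only through the implants, are no support. Of 8 fat cell markers 7 fell, with sums of 8935 to 19343 CPM and 18177 to 27594 CPM. Of 7 macrophage markers 4 rose and 1 fell, with sums of 671 to 3593 CPM and 835 to 1369 CPM. Of 8 fibroblast and adipose progenitor markers 3 rose and 1 fell, with sums of 4976 to 15754 CPM and 3476 to 10934 CPM. Their part in the Hox result was not tested. In such bulk samples fewer cells of a type and less RNA per cell cannot be told apart.

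**Figure D3:**
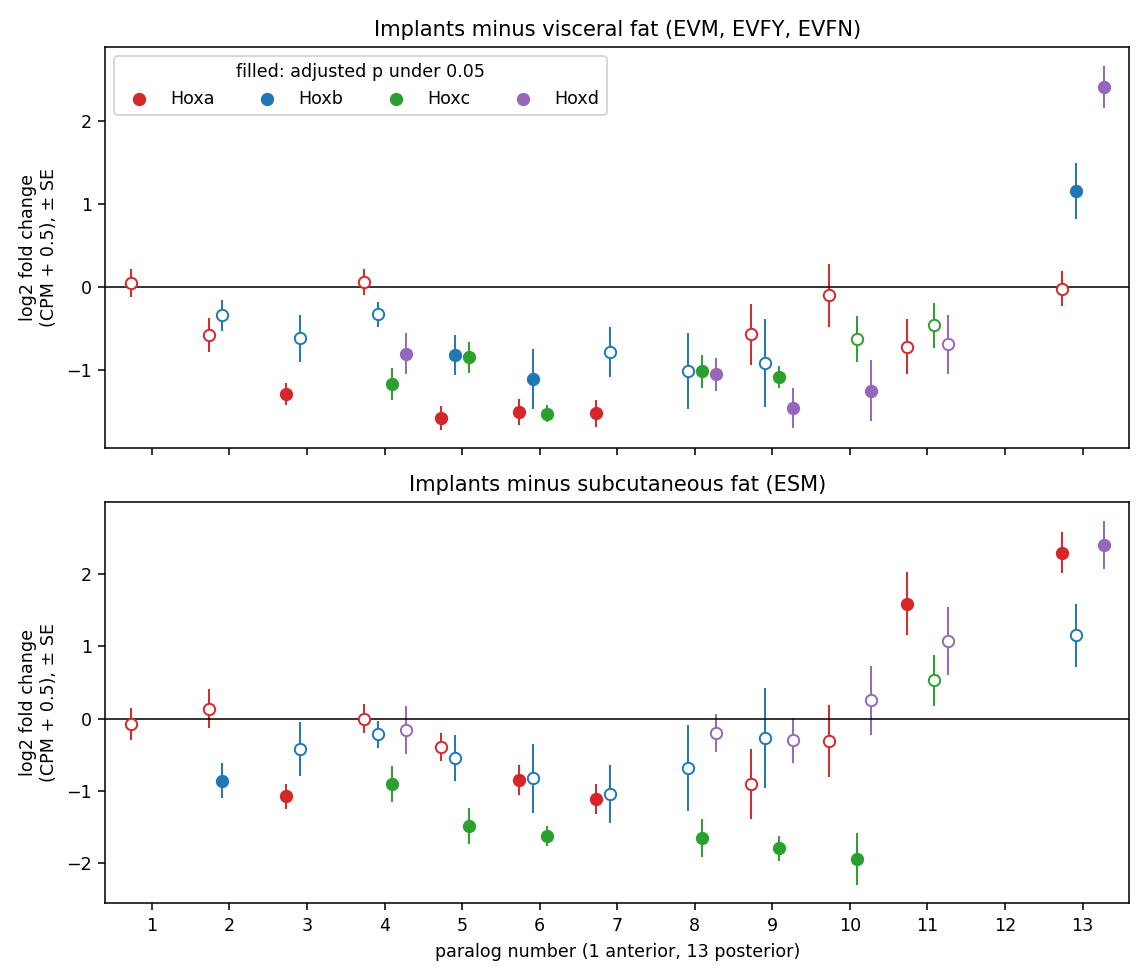
Log2 fold change with its standard error for each tested Hox gene against paralog number, for implants minus visceral fat (top) and implants minus subcutaneous fat (bottom); colours are clusters, offset sideways for clarity, and filled points have an adjusted p under 0.05. In the top panel 14 of the 15 middle genes lie below 0, the exception being Hoxa4 at 0.07, and in the bottom panel Hoxc genes fall to -1.95 at Hoxc10 while Hoxa13 and Hoxd13 lie above 2.

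Against subcutaneous fat, the other depot under the skin, most of the members that fell were Hoxc genes. Hoxc4, Hoxc5, Hoxc6, Hoxc8, Hoxc9 and Hoxc10 all fell, 6 of the 7 Hoxc genes tested, by 0.91 to 1.95 on the log2 scale. Hoxa11 and Hoxa13, posterior genes of limb patterning, rose to a low level in implants, against 0 reads in ESM. Hoxd13, also at 0 reads in ESM, is included in the counts of genes that rose below. It reached the filter only through the implants, where it is high, so its test is no support. In all 3 members rose and 10 fell of 33 tested, beside 12.9% higher and 3.58% lower over all genes tested. The median log2 change was -0.40 over the members and 0.14 over all genes tested. Of the Hoxa genes 2 of 11 rose and 3 fell, of the Hoxb genes 1 of 9 fell, and of the Hoxd genes 1 of 6 rose. By class 2 of 5 anterior and 6 of 15 middle genes fell, and of 13 posterior genes 3 rose and 2 fell. This comparison shares its implant libraries with the one above. ESM has only 2 libraries, and without ESM1 the number that fell was 3. With the libraries labelled MKM1 and EVFN1 included, limma called 0 higher and 0 lower, with 3 higher and 6 lower at an unadjusted p under 0.05.

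Hoxc10 had 3.51 to 9.2 CPM in implants, against 20.9 and 21.2 CPM in ESM, and fell by 1.95 (SE 0.36, adjusted p = 0.0087 by limma). Hoxc9 had 5.75 to 8.76 CPM in implants, against 25.7 and 26.1 CPM in ESM, and fell by 1.80 (SE 0.17, adjusted p = 0.0010). Hoxc8 had 16.0 to 52.5 CPM in implants, against 95.1 and 65.0 CPM in ESM, and fell by 1.65 (SE 0.26, adjusted p = 0.0048). The sides did not overlap for any of the 3 genes, and the share of all genes without such overlap was not counted. Hoxc6 had 9.42 to 21.6 CPM in implants, against 47.2 and 38.9 CPM in ESM, and fell by 1.63 (SE 0.14, adjusted p = 0.0006). Hoxc5 had 4.25 to 12.1 CPM in implants, against 25.1 and 16.1 CPM in ESM, and fell by 1.49 (SE 0.25, adjusted p = 0.0055). These genes neighbour each other on chromosome 15 between 102966796 and 103017429. Without ESM1 the adjusted p was 0.058 for Hoxc8, 0.064 for Hoxc5 and 0.068 for Hoxc10, with log2 changes of -1.38, -1.18 and -1.96. Without ESM2 it was 0.062 for Hoxc10.

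Hoxa13 had 1.02 to 3.28 CPM in implants (median 1.59) and 0 reads in both ESM libraries, at least 22.7-fold higher in implants. Its log2 change was 2.30 (SE 0.28, adjusted p = 0.0020). Hoxd13 was at least 26.4-fold higher in implants by the same bound, and is a description here too, having reached the filter only through the implants. Hoxa11, a gene of the forearm and lower leg and of the uterus, had 0.58 to 1.89 CPM in implants (median 0.94) and 0 reads in ESM, at least 11.7-fold higher. Its log2 change was 1.6 (SE 0.43, adjusted p = 0.037), and the adjusted p was above 0.05 when any 1 of 8 libraries was left out, reaching 0.16 without ESM1 and 0.15 without ESM2. Hoxb13 was at least 8.08-fold higher by reads. Hoxc13 had 20 reads over the 7 implants and 0 in ESM, at least 1.70-fold higher, and was not tested.

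Hoxa5 and Hoxd8, which fell against visceral fat, did not pass against subcutaneous fat, and the sides overlapped for both. Hoxa5 had 3.87 to 11.7 CPM in implants and 9.02 and 7.69 CPM in ESM, a log2 change of -0.40 (SE 0.19, adjusted p = 0.20). Hoxd8 had 15.7 to 30.7 CPM in implants and 21.7 and 25.2 CPM in ESM, a log2 change of -0.20 (SE 0.26, adjusted p = 0.65). Hoxa7 had 8.87 to 12.4 CPM in implants, against 26.7 and 19.6 CPM in ESM, and fell by 1.12 (SE 0.21, adjusted p = 0.0088). Without ESM1 its value was -0.90 (adjusted p = 0.093). Hoxa3, Hoxa6 and Hoxb2 fell by 1.08, 0.85 and 0.86. The 6 lung epithelium markers rose here too, with sums of 9.49 to 509 CPM in implants and 0.228 to 0.397 CPM in ESM, and the 6 liver markers rose, with sums of 43.6 to 10690 CPM and 26.1 to 28.3 CPM. No lung marker and only 1 liver marker reached 1 CPM in ESM. The calls of the rest, which reached the filter only through the implants, are no support. Mesothelial markers summed to 2.40 to 105 CPM in implants and 4.73 to 9.98 CPM in ESM. Of 8 fibroblast and adipose progenitor markers 3 fell, with sums of 4976 to 15754 CPM in implants and 8920 to 10864 CPM in ESM. Of 8 fat cell markers 2 fell, with sums of 8935 to 19343 CPM and 15511 to 24373 CPM. Of 7 macrophage markers 4 rose and 1 fell, with sums of 671 to 3593 CPM and 844 to 1129 CPM. The part of these cells in the Hox result was not tested. Sex chromosome genes also moved with this comparison. Xist, the RNA that coats the silenced X chromosome, was at 0.45 and 0.06 CPM in ESM. It was at 3.77 CPM in MKM2 and at 451 to 766 CPM in the other implants. Ddx3y, a gene of the Y chromosome, was at 89.7 and 73.5 CPM in ESM. It was at 80.6 CPM in MKM2 and at most 17.3 CPM in the other implants. The part of these genes was not tested.

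**Figure D4:**
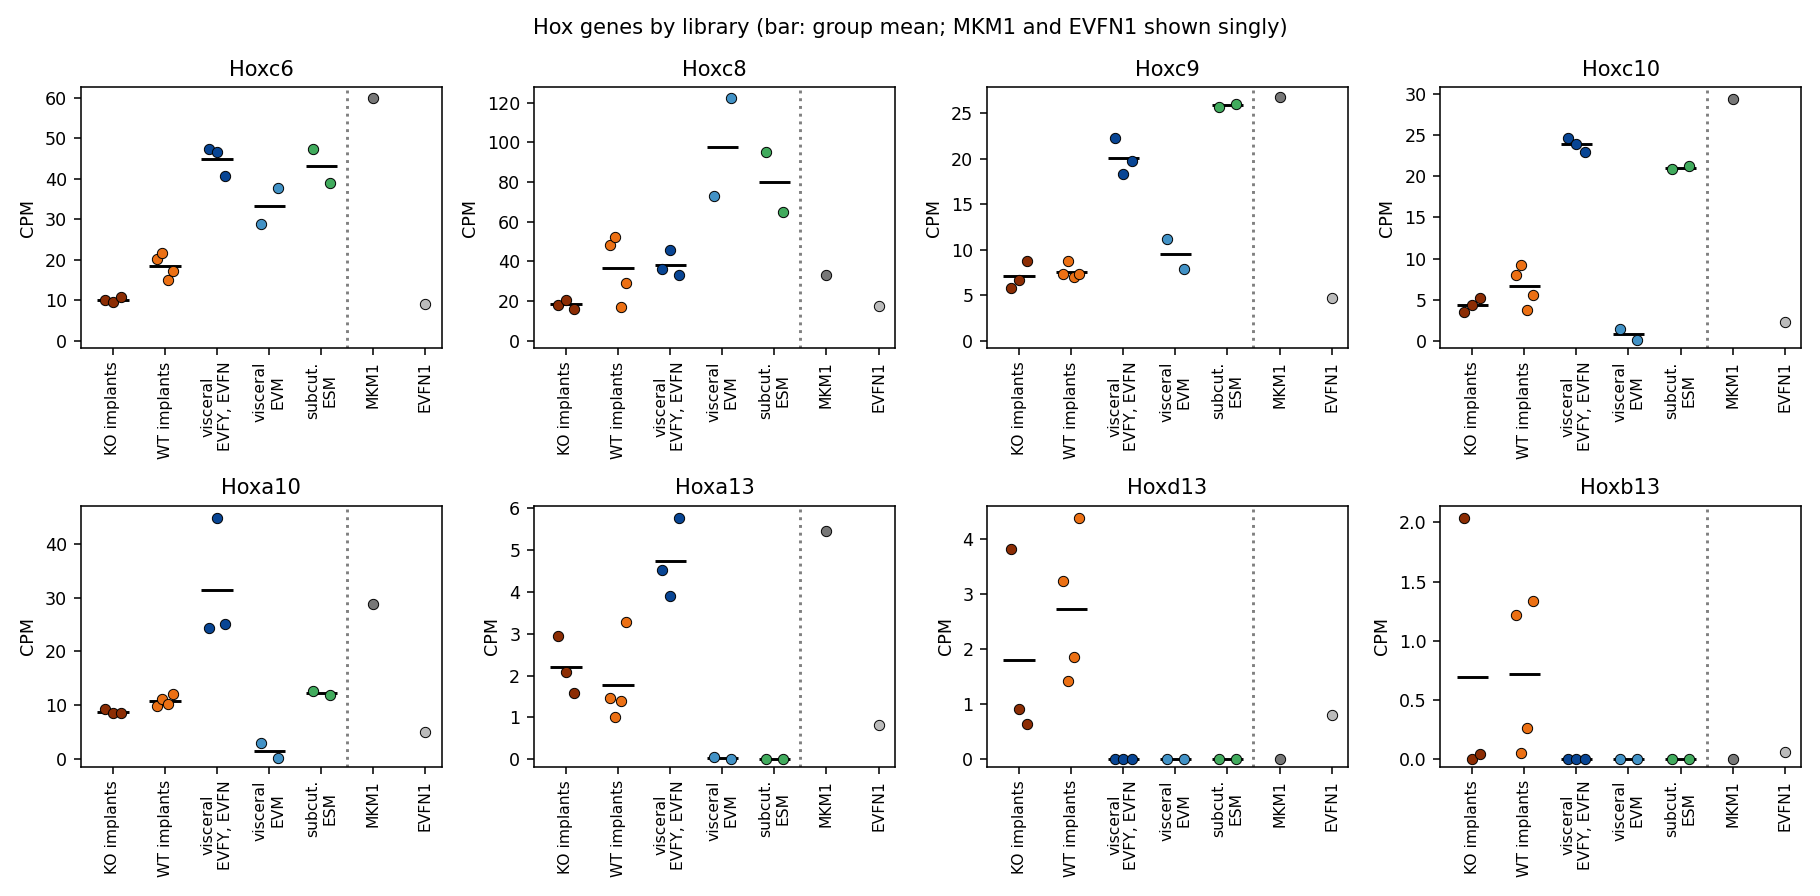
CPM of 8 Hox genes in each library, by group; points are libraries, bars are group means, and MKM1 and EVFN1 stand to the right of the dotted line. Hoxc10 and Hoxa10 are high in EVFY and EVFN2 and lie below every implant in EVM, and Hoxd13 has signal in all 7 implants and 0 reads in fat.

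Between the endogenous depots, visceral fat had more Hoxa5 and Hoxa13 than subcutaneous fat. Of 33 members 2 rose and 0 fell by limma, beside 0.565% higher and 0.632% lower over all genes tested. At an unadjusted p under 0.05 by limma the numbers were 10 and 4, with the share of all genes not counted. Of the members edgeR called 0 and 0, beside 65 and 124 over all genes tested, and DESeq2 4 and 2, beside 344 and 371. Hoxa5 had 21.7, 18.6, 21.9, 16.4 and 17.0 CPM in visceral fat, against 9.02 and 7.69 CPM in ESM, and rose by 1.17 on the log2 scale (SE 0.20, adjusted p = 0.032). Each visceral library was above each subcutaneous one, and the adjusted p was above 0.05 when any 1 of 7 libraries was left out, up to 0.31 without ESM2. Hoxa13 had 4.52, 3.89 and 5.76 CPM in EVFY1, EVFY2 and EVFN2, 0.06 and 0 CPM in EVM, and 0 reads in ESM. Its log2 change was 2.32 (SE 0.29, adjusted p = 0.0072), and 0.08 with EVM alone (adjusted p = 0.97), so that the call rested on EVFY and EVFN. Without ESM1 its adjusted p was 0.057, and without ESM2 0.085. EVFY and EVFN also differed from ESM in sex chromosome genes, with 273 to 644 CPM of Xist against 0.45 and 0.06 CPM. Ddx3y was at 0 reads in EVFY and EVFN and at 89.7 and 73.5 CPM in ESM. The Hoxa13 difference cannot be told apart from that of these genes. Hoxc9, known from human fat as higher under the skin, had 7.91 to 22.3 CPM in visceral fat and 25.7 and 26.1 CPM in ESM (log2 change -0.71, SE 0.18, adjusted p = 0.16). Of the 8 mesothelial markers 7 rose, with sums of 264 to 525 CPM in visceral fat and 4.73 to 9.98 CPM in ESM. Some of these markers reached the filter only through visceral fat, so their calls are no support. Of 8 fibroblast and adipose progenitor markers 2 fell, with sums of 3476 to 10934 CPM and 8920 to 10864 CPM. The part of either in the result was not tested. With the libraries labelled MKM1 and EVFN1 included, limma called 0 higher and 0 lower, with 4 and 2 at an unadjusted p under 0.05.

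Posterior Hoxa and Hoxc genes were higher in EVFY and EVFN2 than in EVM, where several were near 0, and this comparison was chosen after the values were seen. Of 33 members 7 were higher and 1 was lower in EVFY and EVFN than in EVM, beside 0.481% and 0.873% over all genes tested. All 7 that were higher are posterior, of 13 posterior genes tested, of which Hoxb13 and Hoxd13 had 0 reads throughout visceral fat: Hoxa9, Hoxa10, Hoxa11, Hoxa13, Hoxc9, Hoxc10 and Hoxc11. Paralogs 10 to 13 summed to 78.9 ± 26.5 CPM in EVFY and EVFN (SD, n = 3), and to 6.25 and 0.70 CPM in EVM. With only these groups in the fit, limma called 0 members higher and 0 lower, beside 1 and 6 over all genes tested. At an unadjusted p under 0.05 the members numbered 10 and 4. With MKM1 and EVFN1 included, limma called 0 and 0, with 8 and 4 at an unadjusted p under 0.05.

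Hoxc10 had 24.7, 24.0 and 23.0 CPM in EVFY1, EVFY2 and EVFN2, against 1.45 and 0.12 CPM in EVM, a log2 change of 4.46 (SE 0.42, adjusted p = 0.0034 by limma). Hoxa10, a gene of the lower back and uterus, had 24.3, 44.8 and 25.2 CPM in EVFY and EVFN, against 3.07 and 0.19 CPM in EVM, a log2 change of 4.22 (SE 0.58, adjusted p = 0.017). EVFY2 was the highest for Hoxa10 and also for Hoxa9, Hoxa11 and Hoxd10. Hoxa9 had 20.8, 30.5 and 17.2 CPM in EVFY and EVFN, against 3.63 and 0.35 CPM in EVM, a log2 change of 3.51 (SE 0.56, adjusted p = 0.026). Hoxa13 had a log2 change of 3.36 (SE 0.32, adjusted p = 0.0037). Hoxa11 had 3.12, 10.03 and 3.33 CPM in EVFY and EVFN, against 0.33 and 0 CPM in EVM, a log2 change of 2.91 (SE 0.50, adjusted p = 0.032). Hoxc11 had 1.91, 3.89 and 2.26 CPM, against 0.06 and 0 CPM in EVM, a log2 change of 2.51 (SE 0.41, adjusted p = 0.027). EVM1 was above EVM2 for each of these genes.

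Toward the middle of the clusters the sizes were smaller. Hoxc9 had 22.3, 18.4 and 19.8 CPM in EVFY and EVFN, against 11.2 and 7.91 CPM in EVM, a log2 change of 1.05 (SE 0.20, adjusted p = 0.047). Hoxc8, its neighbour toward the anterior end, had 36.2, 45.6 and 33.1 CPM in EVFY and EVFN, against 72.8 and 122 CPM in EVM, a log2 change of -1.35 (SE 0.30, adjusted p = 0.074). Hoxa5 had a log2 change of 0.32 (SE 0.22, adjusted p = 0.51) and Hoxd8 of 0.37 (SE 0.30, adjusted p = 0.58). Hoxa4, a gene of the neck segments, was the member that was lower, at 1.26, 1.86 and 1.6 CPM in EVFY and EVFN, against 5.52 and 4.84 CPM in EVM, a log2 change of -1.45 (SE 0.24, adjusted p = 0.027). In the Hoxd cluster the same direction did not pass: Hoxd10 had 3.17, 14.8 and 2.44 CPM in EVFY and EVFN, against 1.23 and 0.39 CPM in EVM (adjusted p = 0.13), and Hoxd11 1.86, 8.11 and 1.54 CPM, against 0.06 and 0 CPM (adjusted p = 0.064). No Hoxb gene passed of 9 tested, of which Hoxb13 had 0 reads in all visceral libraries and could not pass. Hoxb9 and Hoxb8 had 12.7 and 21.8 CPM in EVM1, against 1.47 and 3.37 CPM in EVM2.

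Of the 8 calls, those of Hoxc10, Hoxa10 and Hoxa13 held without each single library, with an adjusted p of at most 0.038. The call of Hoxc9 was lost when any 1 of 13 of the 14 libraries was left out (adjusted p up to 0.11 without EVM2), and that of Hoxa11 with any 1 of 8 (up to 0.097 without EVM1). That of Hoxa4 was lost with any 1 of 6 (up to 0.12 without EVM1), that of Hoxa9 without MKF1, MKF2, MWM1 or MWM2 (up to 0.055), and that of Hoxc11 without EVM1, MWM1 or MWM2 (up to 0.10 without EVM1). The labels call EVM surgical and EVFN nonsurgical, and do not say which EVFY was, so code and surgery cannot be told apart for all 3 libraries, and sex chromosome genes move with the codes. Xist, the RNA that coats the silenced X chromosome, had 273 to 644 CPM in EVFY and EVFN, against 0.19 and 0.22 CPM in EVM. Ddx3y, a gene of the Y chromosome, was at 0 reads in EVFY and EVFN and at 90.7 and 95.5 CPM in EVM, so the Hox difference cannot be told apart from that of these genes. The 6 epididymis and testis markers summed to 0 to 0.238 CPM in EVFY and EVFN, with 5 of them at 0 reads, and to 0.504 and 7.09 CPM in EVM. The 6 mammary and skin epithelium markers summed to 6.0 to 9.37 CPM in EVFY and EVFN, and to 109 CPM in EVM1 and 4.34 CPM in EVM2. Of 7 macrophage markers 2 were lower, with sums of 835 to 1090 CPM in EVFY and EVFN and 1179 to 1369 CPM in EVM. Their part in the result was not tested.

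**Figure D5:**
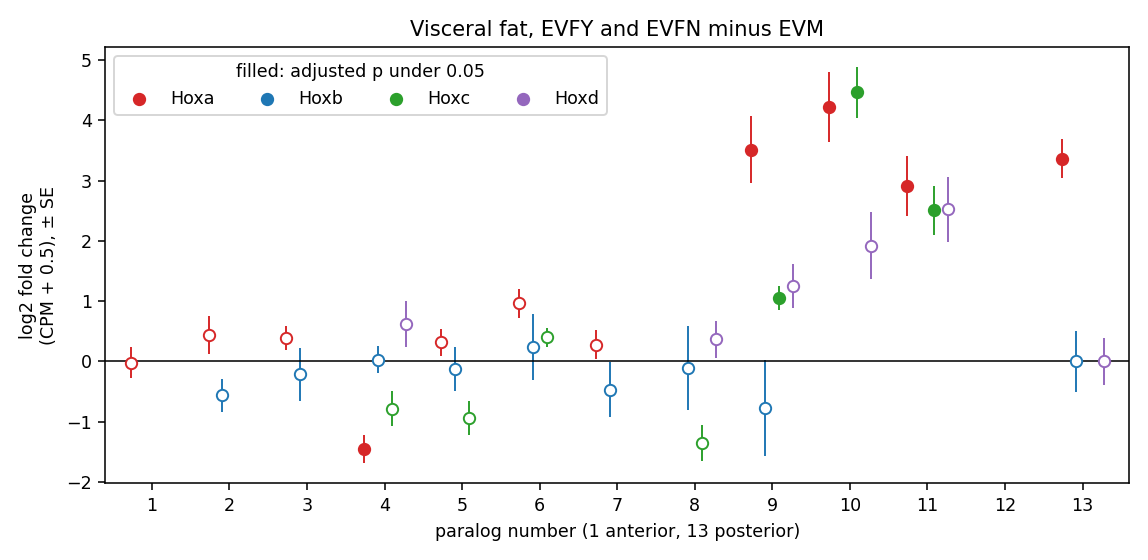
Log2 fold change with its standard error for each tested Hox gene against paralog number, EVFY and EVFN minus EVM; colours are clusters and filled points have an adjusted p under 0.05. Points from paralog 9 on lie above 1 in Hoxa, Hoxc and Hoxd, up to 4.46 at Hoxc10, and Hoxb9 and the 2 genes with 0 reads in all visceral libraries do not; paralogs 1 to 8 lie between -1.45 and 0.97.

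Between KO and WT implants a single Hox gene, Hoxc6, passed the threshold, a share no larger than that over all genes tested. Members that did not pass are not thereby shown to be alike. Of 33 members 0 rose and 1 fell by limma, beside 6.67% higher and 4.1% lower over all genes tested. By edgeR 0 rose and 1 fell, beside 1282 and 470 over all genes tested, and by DESeq2 0 and 4, beside 1752 and 1326. At an unadjusted p under 0.05 by limma the numbers were 0 and 4. Hoxc6 had 9.93, 9.42 and 10.8 CPM in KO implants, against 20.2, 21.6, 14.9 and 17.2 CPM in WT implants. All KO implants were below all WT implants, and Hoxc6 fell by 0.84 on the log2 scale (SE 0.13, adjusted p = 0.0060). Hoxc8 had 18.2, 20.6 and 16.0 CPM in KO implants, against 48.2 and 52.5 CPM in MWM and 17.0 and 29.0 CPM in MWF, a log2 change of -0.86 (SE 0.26, adjusted p = 0.064). MWF1 lay among the KO implants. Hoxa5 had 5.50, 3.87 and 4.76 CPM in KO implants, against 7.47, 4.63, 11.7 and 9.43 CPM in WT implants, a log2 change of -0.65 (SE 0.19, adjusted p = 0.062). Hoxc9, Hoxc10 and Hoxd8 had log2 changes of -0.17, -0.56 and -0.35 (adjusted p of 0.54, 0.35 and 0.40). Hoxd13 had 3.82, 0.92 and 0.64 CPM in KO implants, against 3.24, 1.41, 1.86 and 4.38 CPM in WT implants, and the sides overlapped.

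The summed Hox level was 153 ± 14.1 CPM in KO implants (SD, n = 3) and 200 ± 21.02 CPM in WT implants (n = 4). It ranged from 137 to 165 CPM in KO and from 170 to 215 CPM in WT implants, and this difference was not tested. The difference of the KO effect between the male and female codes passed for no member by limma, with 5 at an unadjusted p under 0.05 and a smallest adjusted p of 0.18. That test rests on MKM2 alone for male KO implants. The codes and the sex chromosome genes did not run together: MKM2 had 3.77 CPM of Xist and 80.6 CPM of Ddx3y, whereas MWM had 494 and 466 CPM of Xist with 13.1 and 17.3 CPM of Ddx3y. MKF and MWF had 451 to 766 CPM of Xist and at most 0.27 CPM of Ddx3y. With MKM1 and EVFN1 included, 0 rose and 0 fell between KO and WT, with 1 lower at an unadjusted p under 0.05. Of 7 macrophage markers 6 rose, with sums of 2741 to 3593 CPM in KO implants and 671 to 841 CPM in WT implants. Of 8 fibroblast and adipose progenitor markers 1 rose, with sums of 11984 to 15754 CPM and 4976 to 7963 CPM. The 8 skeletal muscle markers summed to 126 to 2653 CPM in KO implants and to 3724 to 43811 CPM in WT implants, and the 6 lung epithelium markers all fell, with sums of 9.49 to 25.6 CPM and 121 to 509 CPM. Their part in the Hoxc6 result was not tested.

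Genes that act with the Hox proteins or on the clusters were tested in the same fit. Meis1 and Meis2 encode cofactors that bind DNA beside Hox proteins, and stand here as single genes of a longer list that is not reported as a whole. In implants against visceral fat Meis1 fell by 1.74 on the log2 scale (adjusted p = 0.0032 by limma) and Meis2 by 1.16 (adjusted p = 0.016). Against subcutaneous fat their log2 changes were -0.24 (adjusted p = 0.72) and -0.01 (adjusted p = 0.99). Meis3 rose in KO implants against WT implants, by 0.71 (adjusted p = 0.030). Noncoding RNAs of the clusters numbered 16 in the data, of which 8 were tested and 3 fell against visceral fat, beside 9.2% of all genes: Hoxd3os1 by 0.96, Hoxa11os by 0.82 and Hoxaas2 by 0.86. Against visceral fat the median log2 change was -0.52 over the noncoding RNAs and 0.11 over all genes tested. Hoxa11os had a log2 change of 2.26 in EVFY and EVFN against EVM (adjusted p = 0.027), the direction of Hoxa11, and reads of this pair cannot be told apart without the strand. Hoxa11os reached the filter only through EVFY and EVFN, where it is high. Its tests, here and against visceral fat, are therefore no support and its values are a description.

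Polycomb and trithorax proteins, which keep Hox genes silent or active, were counted over 25 genes, with a median log2 change of -0.05 against visceral fat. Against visceral fat 2 rose in implants and 5 fell, beside 20.1% and 9.2% of all genes tested, among them Kdm6b, a demethylase that lifts Polycomb marks, by 0.48 (adjusted p = 0.013), while Phf19, a Polycomb subunit, rose by 0.68 (adjusted p = 0.030). Phf19 rose by 1.47 against subcutaneous fat (adjusted p = 0.0067). There 2 of the 25 genes rose and 0 fell, beside 12.9% and 3.58% of all genes tested. Kdm6a, an X-linked demethylase of the same kind, fell by 0.51 in KO implants and had a log2 change of 0.72 in EVFY and EVFN against EVM. Sex chromosome genes differed in both comparisons. MKM2 had 482 reads of Kdm6a and 3.77 CPM of Xist, against 578 to 1148 reads and 451 to 766 CPM in the other implants. Their part in the Kdm6a values was not tested. Retinoic acid, made by Aldh1a enzymes, switches on anterior Hox genes in the embryo. Of 14 tested genes of its supply and receptors, 1 rose and 4 fell in implants against visceral fat (20.1% and 9.2% of all genes), and 2 rose and 1 fell against subcutaneous fat (12.9% and 3.58%), with medians of -0.12 and -0.09. Stra6, the receptor that takes up retinol from its carrier, rose against both, by 1.45 and 1.48 (adjusted p = 0.0088 and 0.037). It is included in the counts that rose, but reached the filter only through WT implants, where it is high. Its tests are therefore no support. The implants were uneven, with 57 and 16 reads in MWM, 134 and 192 in MWF, and 17, 9 and 15 in KO implants. Visceral fat had 2 to 14 reads and ESM 1 and 13. Aldh1a2 fell by 0.48 against visceral fat (adjusted p = 0.045), rose by 0.71 against subcutaneous fat (adjusted p = 0.045), and was higher by 1.19 on the log2 scale in visceral than in subcutaneous fat (adjusted p = 0.038). Of 8 Cdx and axial signal genes 2 were tested, and Gdf11, which advances the switch to posterior Hox genes in the embryo, rose by 0.74 against visceral fat (adjusted p = 0.024) and fell by 1.55 in KO implants against WT implants (adjusted p = 0.0069). Gdf11 had 77, 74 and 81 reads in KO implants, 202 to 268 in WT implants and 51 to 130 in visceral fat. The other gene, Cdx1, did not pass against visceral fat. It had 33, 12 and 51 reads in MKM2, MWM1 and MWF2, and 0 to 3 in every other library.

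The library labelled EVFN1 had Hox levels nearer to those of implants than to those of the visceral libraries by the size of the differences. It had 9.05 CPM of Hoxc6, 17.4 of Hoxc8, 4.64 of Hoxc9, 2.26 of Hoxc10 and 6.38 of Hoxa5. It also had 0.81 CPM of Hoxd13, a gene with 0 reads in the 5 other visceral libraries and in subcutaneous fat. Of the 39 members 29 lay within the range of the 7 implants, 18 within the range of the 5 visceral libraries and 7 within that of EVFY and EVFN2. Over the 33 tested members the median absolute difference in log2 level was 0.30 to MKF2, the nearest library, and 0.30 to 0.52 over the implants, against 0.91 to 1.47 over the 5 visceral libraries. The correlation of log2 levels over these genes was highest with MKF2 (r = 0.94), and was 0.87 to 0.94 over the 7 implants, 0.69 to 0.90 over the 5 visceral libraries (0.90 with EVM1, 0.81 with EVFN2) and 0.92 with ESM1, so that by this measure implants and fat overlapped. Such values are over genes, which are not independent replicates, and describe likeness only. Its Ddx3y was 29.3 CPM and its Xist 278 CPM.

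The library labelled MKM1 had a Hox profile nearer to EVFY and EVFN2 than to implants. It had 60.0 CPM of Hoxc6, 26.8 of Hoxc9, 29.4 of Hoxc10, 28.8 of Hoxa10, 24.3 of Hoxa5 and 64.0 of Hoxd8, each above every implant. It had 5.46 CPM of Hoxa13, and 0 reads of Hoxd13 and Hoxb13. Of the 39 members 28 were above the range of the implants, 9 within it and 2 below. Within the range of the 5 visceral libraries lay 27. Over the 33 tested members the median absolute difference in log2 level was 0.24 to EVFY1, the nearest library, and 1.17 to MKM2, which carries the same group code, and r was 0.99 and 0.77. Its mesothelial markers summed to 498 CPM, against 2.40 to 105 CPM in the implants, its Ddx3y was at 0 reads and its Xist at 352 CPM. The summed Hox level was 477 CPM in MKM1 and 165 CPM in MKM2, and 133 CPM in EVFN1 and 389 CPM in EVFN2.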

How the data were processed

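RNA of 16 mouse libraries was depleted of ribosomal RNA and sequenced. The authors deposited 1 table of CPM by gene symbol. The submitters' processing notes name FastQC 0.11.4, cutadapt 2.7, Subread 1.6.3 (featureCounts) and STAR 2.5.4, with mm10; annotation, strand setting and filters are not stated in those notes. CPM divides by the library total alone, so a very abundant gene lowers all others. Every value was a whole multiple of 1 read (100%, tolerance 0.001 reads), so read counts were recovered.

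limma 3.58.1 (R 4.3.3, trend, robust) fitted 8 group means to log2(CPM + 0.5) in 14 libraries (6 residual degrees of freedom), with the Benjamini-Hochberg adjustment over 17871 genes and groups weighted equally in each contrast. MKM2 and EVFN2, alone in their codes, are assumed to vary like the others. Nothing in the labels ties libraries to separate animals: p-values reflect the spread of these libraries, which may be technical. Where a side had 0 reads, the fold is a bound against 3 reads over that side, for counting error only, as there are no molecular identifiers.

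The members, gene lists and comparisons were chosen with earlier results of these data known. All 39 members may be named. Values by library are given for members that passed and averaged 1 CPM or more on either side, up to 6 per direction and comparison by fold, and always for Hoxa5, Hoxc8, Hoxc9, Hoxc10, Hoxc13 and Hoxd8. From other lists up to 4 genes per comparison are named by adjusted p. Hoxb8, Hoxb9, Hoxb13, Hoxd10, Hoxd11, Xist, Ddx3y and Cfd were picked after their values were seen. Alternatives were pseudocounts of 0.1 and 2, no filter, median-of-ratios and TMM scaling, edgeR 4.0.16 and DESeq2 1.42.0 on the recovered counts, a replicate block, a fit of the compared groups only, single codes and each library left out. The fit was tested on simulated data. The counts of the list of cofactor genes are not reported here.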

Additional observations from a re-analysis of the deposited data

Results flagged for a closer look

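Hoxc9 had 8.75 CPM in MWM2, and 7.28, 7.01 and 7.30 CPM in the other WT implants, so that 1 library stood apart from 3 that lay close together. This was 1 of 35 sets of libraries examined, for members with values given by library, and chance alone marks about 1 in 20. Hoxd13 had 0.812 CPM in the library labelled EVFN1 and 0 reads in the 5 other visceral libraries. In the library labelled MKM1, 29 Hox genes were higher than in all 4 WT implants. For the last 2 results the library lies outside every comparison, and no explanation was tested.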

How the results depend on the processing

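With the libraries labelled MKM1 and EVFN1 included, 0 Hox genes rose and 0 fell in each of the 5 comparisons. In that setting several log2 changes turned: Hoxc10 to 0.25 in implants minus visceral fat, Hoxd8 to 0.0222 in implants minus subcutaneous fat, Hoxc9 to 0.36, Hoxc10 to 0.17 and Hoxd8 to 0.0914 in KO minus WT implants, and Hoxa5 to -0.10 and Hoxd8 to -0.12 in EVFY and EVFN minus EVM. For implants minus visceral fat, the number higher was 4 with no filter, 1 with edgeR, 1 with WT implants alone, 4 against EVM alone and 1 against EVFY and EVFN alone, and the number lower was 9 with WT implants alone and 9 against EVM alone. Over all genes tested, the numbers higher were 3371, 2953, 2849, 1119 and 3296 in the same order, and those lower 1162 and 495. Hoxc10 was 2.35 against EVM alone. For visceral minus subcutaneous fat, edgeR called 0 higher, DESeq2 4 higher and 2 lower, the fit of the compared groups only 1 higher, and EVM alone 0 higher and 2 lower. Over all genes tested, the numbers were 65 higher, 344 and 371, 37 higher, and 111 and 86 in the same order. Hoxc8 was 0.26 with EVM alone and Hoxc10 0.16 with EVFY and EVFN alone. For KO minus WT implants DESeq2 called 4 lower and the fit of the compared groups only 2 lower, beside 1326 and 1145 over all genes tested. For EVFY and EVFN minus EVM DESeq2 called 3 lower, beside 1048 over all genes tested. The fit of the compared groups only called 0 higher and 0 lower, beside 1 and 6. That fit has fewer libraries to estimate the spread. The causes of these changes between settings were not tested.

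With each library left out in turn, the numbers of Hox genes higher and lower ranged from 1 to 2 and 11 to 22 (implants minus visceral fat), 2 to 3 and 3 to 11 (implants minus subcutaneous fat), 0 to 4 and 0 to 1 (visceral minus subcutaneous fat), 0 to 0 and 1 to 2 (KO minus WT implants), and 3 to 8 and 0 to 1 (EVFY and EVFN minus EVM). The number lower against visceral fat was 22 without EVM2, and in the last comparison the number higher was 3 without MWM1 or MWM2 and 4 without EVM1, MKF1 or MKF2. Hoxc10 ranged from -0.90 to 0.10 against visceral fat, turning without EVFN2, and Hoxc9 from -0.26 to 0.0202 between KO and WT implants, turning without MKM2. Replicate numbers were not treated as pairs. The correlation of the replicate differences between 6 groups ran from -0.44 to 0.34 over 15 pairs of groups, with 7 over 0.1. With 1 difference per group, this cannot decide whether replicate numbers pair the samples. With the replicate block, Hox genes higher and lower numbered 2 and 13, 3 and 8, 2 and 0, 0 and 1, and 6 and 1 in the same order. Median-of-ratios scaling moved the median log2 change of all genes against subcutaneous fat to 0.03, against 0.14 by library total, and 3 Hox genes rose and 10 fell with either. Depth limits Hoxb1, Hoxc12, Hoxc13, Hoxd1, Hoxd3 and Hoxd12, which were not tested, and bounds against 0 reads.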
